A study of Homo sapiens with 18 samples.

Results

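The genes described here copy the genome. They are 56 genes of DNA replication and S phase, listed by name for what their proteins do. No measured value entered the list, but it was chosen with earlier results of these data known. It covers origin licensing factors, the MCM helicase and the factors that switch it on, the polymerases and primase, and the sliding clamp with its loader. The rest are genes of single-stranded DNA binding, deoxynucleotide supply, chromatin assembly behind the fork, and fork protection. A row was kept where its gene symbol was on the list and its mean over the 18 libraries was at least 10 normalised read counts (reads per gene divided by a library size factor, the values the authors deposited). That gave 54 genes, out of 12381 genes with such a mean and 17155 genes in the table. The remaining 2 of the 56 listed genes, MCM4 and UHRF1, are not analysed here. The lowest mean of any of the 54 was 310.8, so none of them was kept through a single group.

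RNA was measured in GM12878, a human lymphoblastoid line, that is, B cells immortalised with Epstein-Barr virus. All 18 libraries came from cells transduced with lentivirus that carries a guide RNA for CRISPR and kept for 5 days in puromycin (3 µg/ml); the genotype label reads "Wildtype LMP1" for every sample, LMP1 being the viral membrane protein that keeps NF-kB active. The 6 groups of 3 libraries are a control with a non-targeting guide (pxpr) and stable knockouts aimed at the NF-kB subunits cRel, p50, p52, RelA and RelB. No source used here says whether the cells were pools or clones. Loss of each protein was checked by immunoblot, per the labels. Sample titles call the replicates biological. No source says whether they were cultured apart from transduction onward, so p-values measure the spread between these libraries. The design asks how loss of each subunit alters expression.

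As background, replication begins in G1, when the origin recognition complex, CDC6 and CDT1 load the MCM helicase onto origins. At the start of S phase the kinase CDC7 with DBF4, together with CDC45, the GINS complex and MCM10, turns the loaded ring into a moving helicase, and the polymerases follow, held to DNA by the PCNA clamp. Many of these genes are transcribed as cells pass from G1 into S under E2F factors, and lymphoblastoid cells divide continuously in culture. In bulk RNA, fewer cells in S phase and less of a transcript per cell cannot be told apart.

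Promoters were read for the 54 genes because the members moved together in the results below. RefSeq windows (GRCh38.p14) run from 250 bases before to 50 bases after a transcript's start, and 49 of the 54 genes matched by symbol, with 64 windows. Shown are 3 genes that fell strongly and carry an E2F spelling (CDC6, GINS3 and PCNA), FEN1, which fell strongly and carries none, and ORC2, the member that moved least in the RelB-labelled libraries. Each runs from 250 bases before to 30 bases after the start, 5′ to 3′ on the gene's own strand; capitals mark E2F spellings (TTTCCCGC, TTTCGCGC, TTTGCCGC and TTTGGCGC) and the CCAAT box, each on either strand. The windows are chr17:40287629-40287908 (plus strand) for CDC6, chr16:58392221-58392500 (plus) for GINS3, chr20:5126593-5126872 (minus) for PCNA, chr11:61792661-61792940 (plus) for FEN1 and chr2:200963631-200963910 (minus) for ORC2.
CDC6: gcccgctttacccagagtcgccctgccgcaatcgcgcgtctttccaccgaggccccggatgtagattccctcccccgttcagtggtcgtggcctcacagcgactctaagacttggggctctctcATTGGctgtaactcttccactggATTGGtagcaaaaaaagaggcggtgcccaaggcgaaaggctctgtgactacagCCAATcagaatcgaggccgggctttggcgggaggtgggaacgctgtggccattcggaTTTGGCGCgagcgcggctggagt
GINS3: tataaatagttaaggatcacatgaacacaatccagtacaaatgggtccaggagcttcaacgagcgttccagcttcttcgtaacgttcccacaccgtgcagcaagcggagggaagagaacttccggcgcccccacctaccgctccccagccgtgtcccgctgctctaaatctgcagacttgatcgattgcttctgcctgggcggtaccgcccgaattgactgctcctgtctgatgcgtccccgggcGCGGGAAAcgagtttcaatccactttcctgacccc
PCNA: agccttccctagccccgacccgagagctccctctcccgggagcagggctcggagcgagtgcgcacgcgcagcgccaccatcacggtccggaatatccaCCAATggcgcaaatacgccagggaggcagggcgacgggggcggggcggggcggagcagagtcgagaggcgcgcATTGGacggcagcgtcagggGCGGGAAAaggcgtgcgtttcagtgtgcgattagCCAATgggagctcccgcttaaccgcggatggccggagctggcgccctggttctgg
FEN1: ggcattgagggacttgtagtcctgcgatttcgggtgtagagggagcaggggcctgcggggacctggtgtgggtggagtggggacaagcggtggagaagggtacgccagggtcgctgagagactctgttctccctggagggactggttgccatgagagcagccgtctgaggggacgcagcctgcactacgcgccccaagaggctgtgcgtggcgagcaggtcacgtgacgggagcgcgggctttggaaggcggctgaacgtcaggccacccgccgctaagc
ORC2: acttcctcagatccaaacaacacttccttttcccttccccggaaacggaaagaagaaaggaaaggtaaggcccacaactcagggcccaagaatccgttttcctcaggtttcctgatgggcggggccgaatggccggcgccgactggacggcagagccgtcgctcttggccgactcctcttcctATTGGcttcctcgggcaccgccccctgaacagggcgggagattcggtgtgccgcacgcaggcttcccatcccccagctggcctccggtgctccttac
In the CDC6 window the E2F spelling TTTGGCGC begins at base 8 of the transcript, and CCAAT stands 3 times upstream, counting both strands. GINS3 carries GCGGGAAA, the reverse complement of TTTCCCGC, beginning 5 bases before the start, and no CCAAT. PCNA carries the same letters beginning 59 bases before the start, with CCAAT 3 times; this is the one of its RefSeq windows that holds an E2F spelling. Neither spelling occurs in the FEN1 window, and ORC2 has CCAAT once.

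Over the whole set, an E2F spelling stood in 39.1% of the 64 member windows, against 4.62% of 13639 windows of the other genes tested and 3.31% of all 35116 windows. Counted by gene, 25 of 49 members (51%) had one, against 6.36% of 9278 other tested genes. CCAAT stood in 54.7% of member windows and 34.7% of windows of other tested genes. The kappaB motif, searched on both strands by its usual consensus for NF-kB, stood in 15.6% and 13.2%. In MCM7 a CCAAT overlaps an E2F spelling. A match is a stretch of letters and not a measured site.

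Total reads recovered from the deposited values ranged from 15.2 to 37.5 M per library, with a median of 22.1 M. The B-cell markers CD79A, CD79B, MS4A1, PAX5 and CD22 were abundant in every library, at 1239 or more, whereas CD3D and CD14 never exceeded 1.63 and 3.16. Some other T-cell, NK-cell and monocyte markers were higher. NKG7 ranged from 290.1 to 702, CSF1R from 306.5 to 758.2 and CD3E from 12.4 to 26.8. As a check of the labels, NFKB1, which encodes p50, was lower in the p50 knockout (mean 4685 against 7066 in the control), NFKB2 in the p52 knockout (6320 against 8566) and RELA in the RelA knockout (1368 against 2208). NFKB1 and NFKB2 were also lower in the RelA knockout, at 5138 and 6671. The mRNA of a targeted gene need not fall when its protein is lost, so these levels do not measure the loss checked by immunoblot. REL did not pass as lower in the libraries labelled cRel (1298 against 1376) and RELB rose in those labelled RelB (4107 against 3319), so these groups are written cRel-labelled and RelB-labelled; RELB was lowest in the RelA knockout, at 1887, and REL was lowest in the RelB-labelled libraries, at 937.9 (log2 fold change -0.49, adjusted p = 0.024 by limma). Control 3, p52 library 3 and RelA library 2 stood apart: their deviations from their group mean ran against transcript length (rank correlations across genes of -0.45, -0.38 and -0.31). The counts of lower members are therefore also given without these 3 libraries. Exons of 27 of the 54 members overlap another gene in GENCODE release 29, and the strand setting of the counting is not given.

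Replication genes fell in 3 of the 5 groups, to different depths, and 0 of 54 rose in any. In the p50 knockout 47 of the 54 were lower than in the control, with a median 1.23-fold lower (log2 fold change -0.30). In the p52 knockout 51 were lower, with a median 1.49-fold lower (-0.57), and in the RelB-labelled libraries 53 were lower, with a median 1.69-fold lower (-0.76). The cRel-labelled libraries had 2 lower members and a median of -0.07, and the RelA knockout had 0 and a median of -0.05. A member counts as lower or higher at a Benjamini-Hochberg adjusted p under 0.05 over all 12381 genes by limma, fitted to log2(value + 1). By the same rule 19.6% of all genes tested were lower with p50 targeted, 26.4% with p52 targeted, 34.7% in the RelB-labelled libraries, 1.92% in those labelled cRel and 2.63% with RelA targeted. The shares called higher were 17%, 24.5%, 33.1%, 4.17% and 2.92%. Over all genes the median log2 fold change lay between -0.02 and 0.00 in these 5 comparisons, which share the 3 control libraries.

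No member rose by edgeR or DESeq2 on the recovered reads either, and at an unadjusted p under 0.05 the count of higher members was 1 in the RelA knockout (9.67% of all genes) and 0 in the other groups. All 3 RelB-labelled libraries lay below all 3 controls for 53 members, against 35.7% of all genes tested. The same held for 52 members in the p52 knockout (26.7% of all genes) and 49 in the p50 knockout (23.8%). In the cRel-labelled and RelA libraries it held for 15 (14.4%) and 9 (11.4%). A fall of at least 2-fold was seen for 16 members in the RelB-labelled libraries, where 3.78% of all genes fell that far, and for 2 in the p52 knockout (0.67%), CDC45 and MCM10. Without the 3 libraries that stood apart, the counts of lower members were 47, 51 and 53 in the p50, p52 and RelB-labelled groups, 0 in the RelA knockout and 0 in the cRel-labelled libraries, in place of 2.

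**Figure D1:**
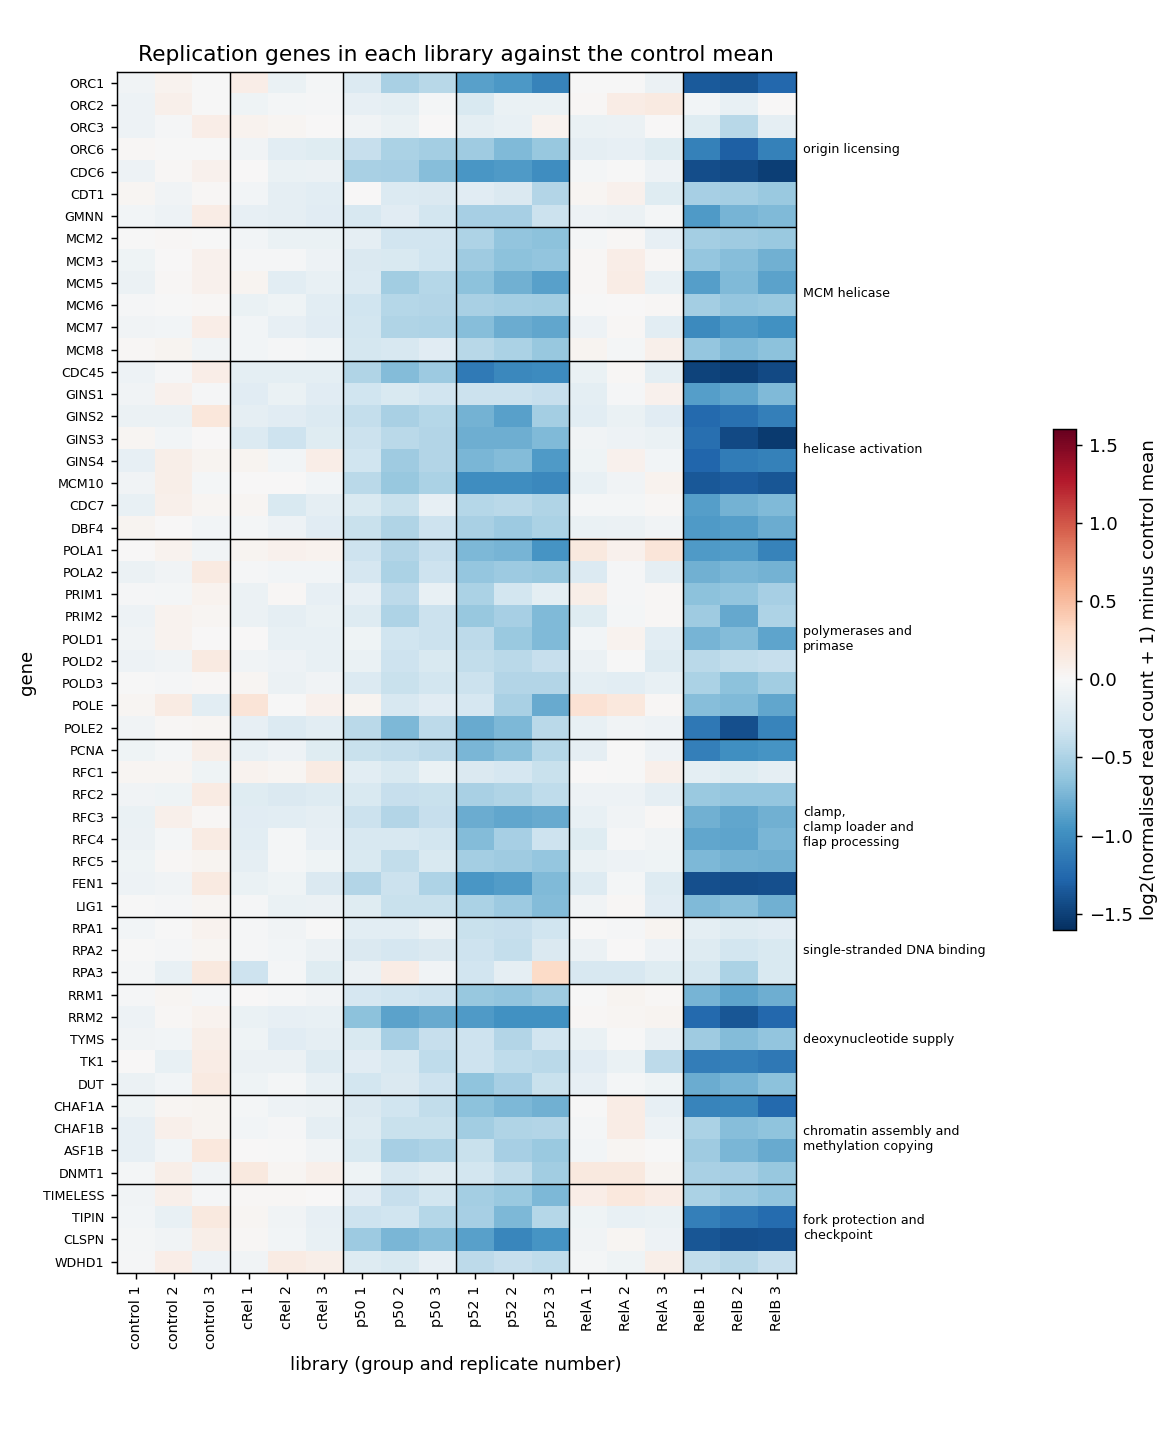
Each row is one of the 54 replication genes and each column one of the 18 libraries; colour gives log2(normalised read count + 1) minus the mean of the 3 controls. The p50, p52 and RelB-labelled columns are blue through almost all rows, palest for p50 and darkest for RelB, and the ORC2, ORC3, RFC1 and RPA rows stay pale throughout.

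The fall was even across replicates in the p52 and RelB-labelled groups, and less so in the p50 knockout. The median of the 54 members in a single library, against the control mean on the log2 scale, was -0.77, -0.76 and -0.74 in the RelB-labelled libraries and -0.58, -0.56 and -0.54 in the p52 knockout. It was -0.36, -0.35 and -0.24 in the p50 knockout, so that the 3 groups did not overlap. The cRel-labelled libraries lay between -0.12 and -0.04, the RelA knockout between -0.07 and -0.01, and the controls between -0.06 and 0.04; these 3 groups overlapped. Members took 0.910% to 0.941% of all reads in the controls and 0.568% to 0.582% in the RelB-labelled libraries.

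**Figure D2:**
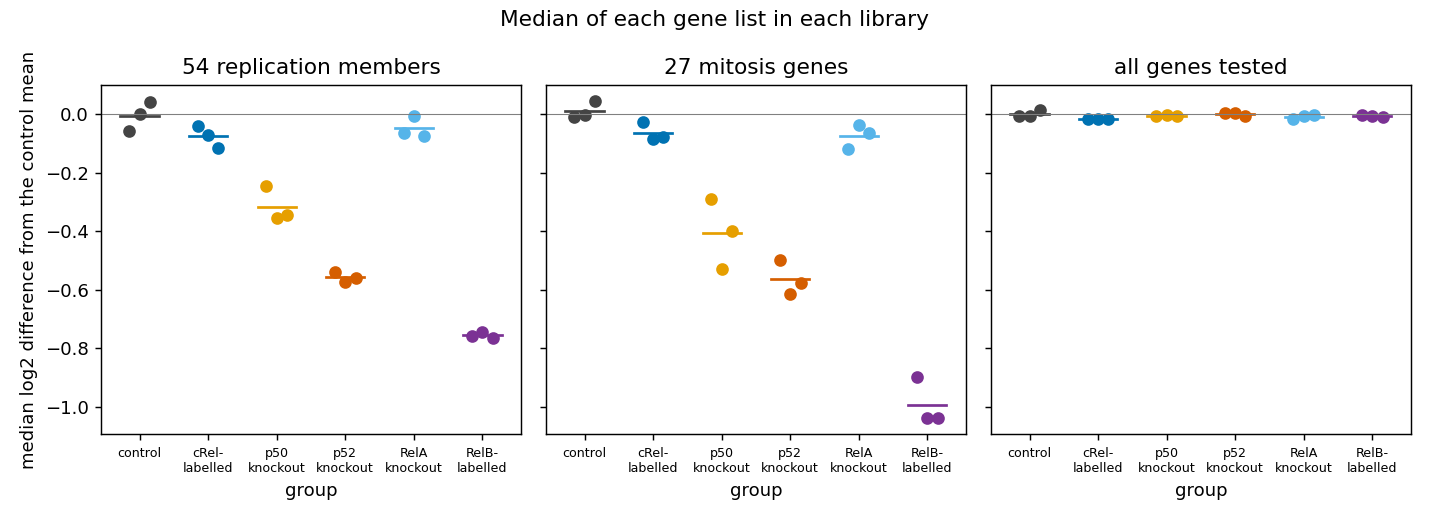
Each point is 1 library; the vertical axis is the median log2 difference from the control mean over the genes of a list. For the 54 members the RelB-labelled libraries sit at -0.77 to -0.74, below the p52 knockout at -0.58 to -0.54 and the p50 knockout at -0.36 to -0.24.

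Markers of other cell types moved in the same libraries. Of 4 T- and NK-cell markers measured, the summed level was 367 to 509 in the controls and 658 to 731 in the RelB-labelled libraries, nearly all of it NKG7, with CD3D at 1.63 or less. The sum of 5 monocyte markers was 388 to 421 in the controls, 623 to 703 in the p50 knockout, 596 to 689 in the p52 knockout and 738 to 774 in the RelB-labelled libraries. Nearly all of that was CSF1R; CD14 stayed at 3.16 or less, LYZ at 15.7 or less and MPO at 4.52 or less. Their part in the fall of the replication genes was not tested.

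Origin licensing factors gave the widest spread within a role. Of 7 members, 4 fell in the p50 knockout, 5 in the p52 knockout and 6 in the RelB-labelled libraries, with median log2 fold changes of -0.25, -0.47 and -0.78. CDC6 (ENSG00000094804), the ATPase that helps load the MCM ring, stood at 2376, 2544 and 2626 in the controls, 1748, 1733 and 1569 with p50 targeted, 1315, 1341 and 1261 with p52 targeted and 943, 919.8 and 888 in the RelB-labelled libraries. It stood at 2518, 2344 and 2364 in the cRel-labelled libraries and 2459, 2513 and 2383 in the RelA knockout. The last 2 groups overlapped the controls, while the p50, p52 and RelB-labelled groups each lay wholly below the one before. The fall was 1.49-fold, 1.92-fold and 2.74-fold in those 3 groups (log2 fold change -1.45 with an SE of 0.06; limma, adjusted p = 1.9e-14).

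ORC1 (ENSG00000085840), the largest subunit of the origin recognition complex, followed the same order. Its values were 1710.3, 1852 and 1766 in the controls, 1524, 1237 and 1302 with p50 targeted, 973, 935 and 848 with p52 targeted and 699.9, 688 and 744 in the RelB-labelled libraries. No 2 of these groups overlapped, whereas the cRel-labelled (1913, 1654 and 1737) and RelA (1762, 1769.9 and 1657) libraries overlapped the controls. ORC6 (ENSG00000091651), another subunit, read 1439, 1407 and 1408 in the controls, 1097, 1002 and 975 with p50 targeted, 953, 868 and 932 with p52 targeted and 669, 571 and 671 in the RelB-labelled libraries. Its cRel-labelled (1367, 1258 and 1240.2) and RelA (1279, 1290.3 and 1244) libraries lay just below all controls, with log2 fold changes of -0.14 (adjusted p = 0.26 by limma) and -0.16 (adjusted p = 0.21 by limma), which did not pass. GMNN, which blocks CDT1 after licensing, fell by 0.25, 0.47 and 0.78 on the log2 scale in the p50, p52 and RelB-labelled groups.

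CDT1 (ENSG00000167513), the second loading factor, moved less than CDC6. It read 3584, 3384 and 3556 in the controls, 3519.7, 3009 and 2990.4 with p50 targeted, 3086, 2995 and 2544 with p52 targeted and 2425, 2401 and 2332 in the RelB-labelled libraries, with 3407, 3187 and 3111 and 3575, 3672 and 3074 in the cRel-labelled and RelA libraries. The p50 values overlapped the controls (log2 fold change -0.15, 95% interval -0.31 to 0.01), and passed only without p50 library 1 (-0.23, adjusted p = 0.0356 by limma). The p52 and RelB-labelled falls passed, at -0.29 and -0.56. ORC2 (ENSG00000115942) was the 1 member that did not pass in the RelB-labelled libraries: 761, 721 and 788 against 739, 830 and 782 in the controls. In the p50, p52, cRel-labelled and RelA groups it read 716, 705 and 768, then 663, 725 and 729, then 749, 766 and 772, then 793, 852 and 868. Its difference of -0.05 had a 95% interval of -0.19 to 0.09, which does not reach the median fall of the members. ORC3 passed only in the RelB-labelled libraries (-0.26), and there not without RelB-labelled library 2 (adjusted p = 0.0695 by limma).

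**Figure D3:**
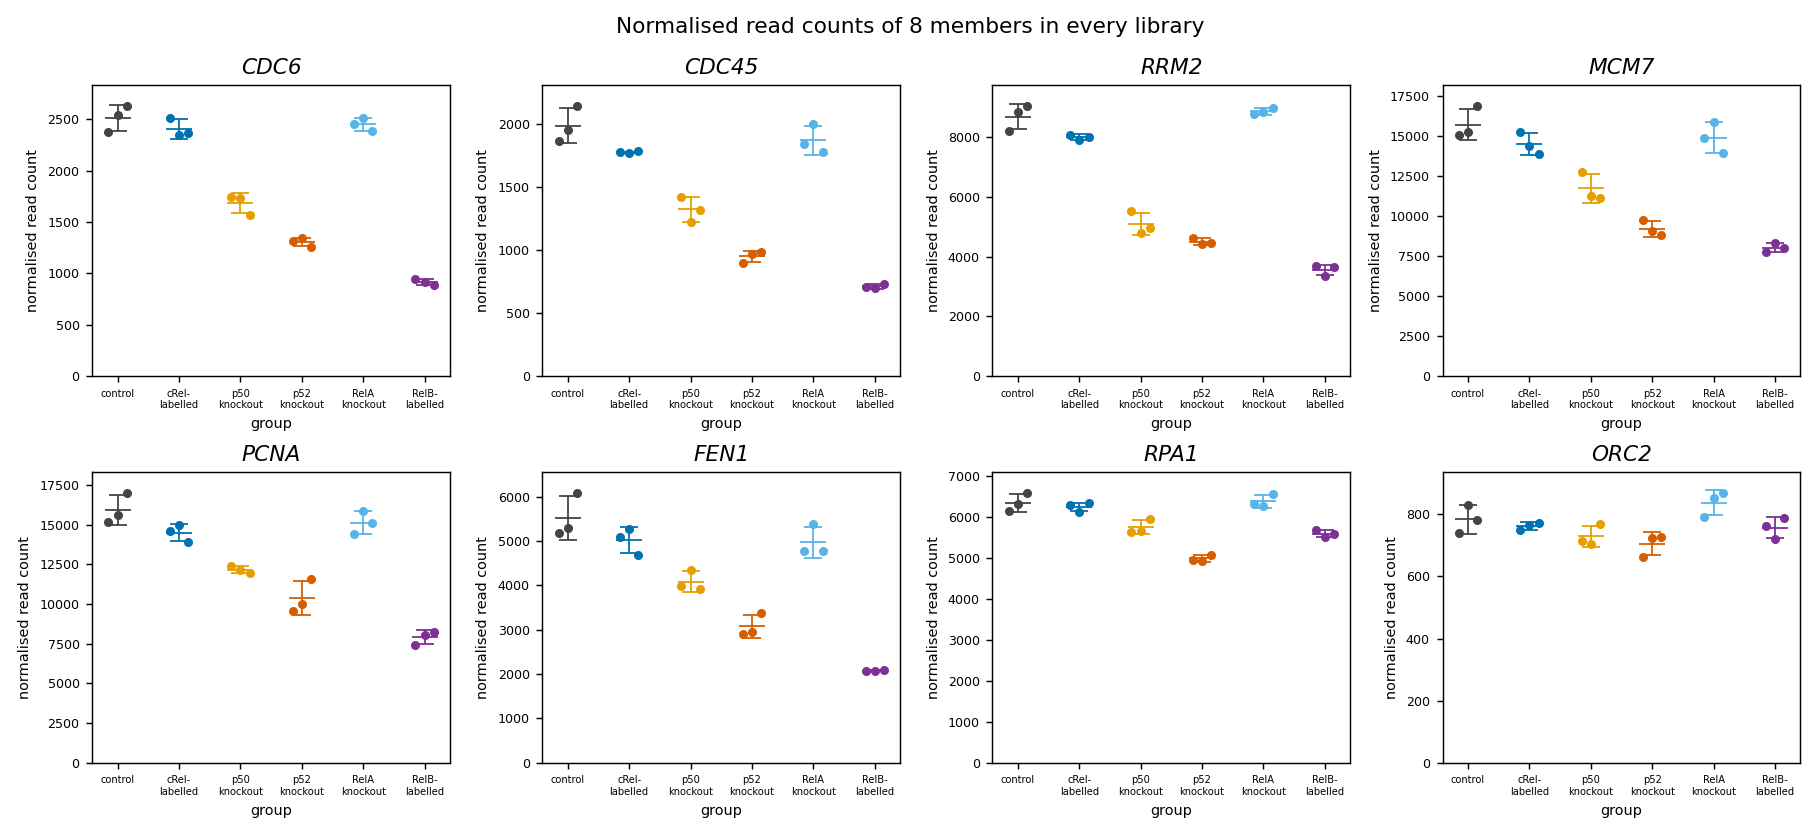
Normalised read counts of 8 members in every library, with bars for the group mean ± SD (n = 3); all axes start at 0. CDC6, CDC45, RRM2, MCM7, PCNA and FEN1 step down from p50 to p52 to RelB, while RPA1 is lowest in the p52 knockout and ORC2 stays level.

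All 6 members analysed with the MCM helicase fell in the p50, p52 and RelB-labelled groups. MCM8 among them acts mainly in repair and not in the replicative ring, and MCM4 is not among them. The median log2 fold changes were -0.33, -0.61 and -0.68. After quantile normalization the p50 differences of MCM2 (-0.10, adjusted p = 0.179 by limma) and MCM3 (-0.12, adjusted p = 0.0844) were no longer called. MCM7 (ENSG00000166508), a core subunit, read 15083, 15262 and 16868 in the controls, 12797, 11286 and 11159 with p50 targeted, 9781, 9085 and 8804 with p52 targeted and 7781, 8295 and 8030.2 in the RelB-labelled libraries. These 4 groups did not overlap one another. The cRel-labelled (15264, 14394 and 13882) and RelA (14903, 15874 and 13944) libraries overlapped the controls.

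For MCM3 (ENSG00000112118), the p52 and RelB-labelled libraries were alike in range. The values were 11705, 12262 and 12808 in the controls, 10475, 10369 and 9842 with p50 targeted, 8239.6, 7783 and 7891 with p52 targeted and 7962, 7622 and 7164 in the RelB-labelled libraries, the last 2 groups overlapping. The cRel-labelled libraries read 12121, 12072 and 11621 and the RelA knockout 12422, 13196 and 12376. MCM6 (ENSG00000076003) showed this too, at 6044, 5906 and 5866 in the p52 knockout and 5927, 5619 and 5738 in the RelB-labelled libraries, with 6901, 6298 and 6257 in the p50 knockout and 8523, 8629.8 and 8758 in the controls. Its cRel-labelled libraries (8045, 8259 and 7661) lay below the controls without passing (adjusted p = 0.23 by limma), and its RelA libraries (8589.5, 8664 and 8748) overlapped them. MCM2 and MCM5 had log2 fold changes of -0.60 and -0.76 in the p52 knockout and -0.57 and -0.81 in the RelB-labelled libraries.

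The factors that activate the helicase fell furthest. All 8 passed in the p50, p52 and RelB-labelled groups, with medians of -0.43, -0.74 and -1.17, the last a 2.25-fold fall. CDC45 (ENSG00000093009), which joins MCM and GINS in the moving helicase, was the member with the largest fall in the p52 and in the RelB-labelled libraries. It read 1870.2, 1952 and 2143 in the controls, 1426, 1228 and 1322 with p50 targeted, 902, 967 and 986 with p52 targeted and 710.1, 696 and 729 in the RelB-labelled libraries. None of these groups overlapped, and the p52 and RelB-labelled means were 2.09-fold and 2.79-fold lower than the control (adjusted p = 2.2e-10 and 6.5e-14 by limma). The RelA libraries (1844, 2002 and 1779) overlapped the controls; the cRel-labelled libraries (1777, 1775 and 1785) lay below them without passing (-0.16, adjusted p = 0.18 by limma).

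GINS3 (ENSG00000181938), a GINS subunit, was 1 of the 2 members called lower in the cRel-labelled libraries. It read 1278, 1216 and 1260.3 in the controls and 1078, 994 and 1090.2 in the cRel-labelled libraries, which lay below all controls (log2 fold change -0.25 with an SE of 0.07; limma, adjusted p = 0.042). That call was lost when any 1 of the 3 controls or 3 cRel-labelled libraries was left out (adjusted p = 0.0521 to 0.186 by limma). In the p50 knockout it read 985, 931 and 904, in the p52 knockout 730.3, 727 and 765, in the RelA knockout 1199, 1186 and 1161 and in the RelB-labelled libraries 539.5, 459 and 433. The RelB-labelled fall was 2.63-fold, with every library below every p52 library.

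MCM10 (ENSG00000065328), needed to start unwinding, was the other member to fall at least 2-fold in the p52 knockout. Its values were 1542, 1717 and 1568 in the controls, 1194, 1056 and 1128 with p50 targeted, 804, 806 and 787 with p52 targeted and 628, 636 and 619 in the RelB-labelled libraries, with no overlap between these groups. The cRel-labelled (1615, 1617 and 1564) and RelA (1485, 1548 and 1666) libraries overlapped the controls. Among the others, GINS2 and GINS4 were 2.26-fold and 2.24-fold lower in the RelB-labelled libraries, and GINS1 1.75-fold. The kinase CDC7 and its activating partner DBF4 fell by 0.79 and 0.86 on the log2 scale there, and by 0.46 and 0.54 in the p52 knockout.

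Of the 9 polymerase and primase genes, 7 fell in the p50 knockout and all 9 in the p52 and RelB-labelled groups, with medians of -0.29, -0.57 and -0.74. POLA1 (ENSG00000101868), the catalytic subunit of polymerase alpha, which makes primers with primase, read 2245, 2324 and 2153 in the controls and 1777, 1623 and 1737 in the p50 knockout. It fell further to 1363, 1342 and 1161 in the p52 knockout and 1194, 1207 and 1070.3 in the RelB-labelled libraries, 2 groups that overlapped. In the RelA knockout (2498, 2350.2 and 2561) all libraries lay above all controls, by 0.14, which did not pass (adjusted p = 0.25 by limma), and the cRel-labelled libraries read 2300.3, 2342 and 2324.

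POLA2 (ENSG00000014138), the regulatory subunit of the same enzyme, read 1414, 1447 and 1667 in the controls, 1245, 1063 and 1194 with p50 targeted, 976, 1003 and 986 with p52 targeted and 884, 909 and 889.8 in the RelB-labelled libraries. These 4 groups were separate, and the cRel-labelled (1492, 1455 and 1458) and RelA (1295, 1482 and 1357) libraries overlapped the controls. POLE2 (ENSG00000100479), a subunit of the leading-strand polymerase epsilon and the member with the lowest mean, had the largest RelB-labelled fall in this role. It stood at 390.4, 411 and 414 in the controls, 300.4, 245 and 304 with p50 targeted, 232, 246 and 300.2 with p52 targeted and 182, 152 and 194 in the RelB-labelled libraries (2.3-fold lower). The p50 and p52 ranges overlapped; the cRel-labelled (369, 348 and 361) and RelA (374, 389 and 383) libraries lay below the controls without passing. POLE, the catalytic subunit, and PRIM1 were the 2 that did not pass in the p50 knockout, at -0.13 (95% interval -0.35 to 0.09) and -0.22 (-0.41 to -0.04). POLD2 fell least in the RelB-labelled libraries, by 0.40 on the log2 scale.

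All 8 genes of the clamp, its loader and flap processing fell in the p50, p52 and RelB-labelled groups, with medians of -0.31, -0.58 and -0.77. PCNA (ENSG00000132646), the sliding clamp, read 15171, 15604 and 16989 in the controls, 12418, 12162 and 11940 with p50 targeted, 9564, 9983 and 11607 with p52 targeted and 7434, 8046 and 8256 in the RelB-labelled libraries. Every group lay below the one before, the last at a 2.01-fold fall. The cRel-labelled libraries (14613, 14972 and 13916) lay below all controls without passing (adjusted p = 0.28 by limma), and the RelA libraries (14429, 15890 and 15094) overlapped them. Per kilobase of exon PCNA had the highest level of the 54, at 10824 normalised counts per kilobase in the control and 5378 in the RelB-labelled libraries. ORC2 and POLE2 had the lowest in the control, at 134 and 137, and the next below PCNA was MCM7, at 3588.

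FEN1 (ENSG00000168496), the nuclease that trims Okazaki fragment flaps, fell nearly as far as CDC6; its window above holds neither motif. It read 5187, 5302 and 6082 in the controls, 3980.2, 4356 and 3926 with p50 targeted, 2895, 2959 and 3374 with p52 targeted and 2075, 2069 and 2085 in the RelB-labelled libraries, 4 separate groups, with 5098, 5272 and 4697 and 4774, 5384 and 4783 in the cRel-labelled and RelA libraries. The RelB-labelled fall was 2.65-fold (log2 fold change -1.41 with an SE of 0.07; limma, adjusted p = 4.2e-13). An exon of FEN1 overlaps another annotated gene on each strand.

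The clamp loader subunits did not move alike. RFC3 (ENSG00000133119) read 3106, 3559 and 3402 in the controls, 2641, 2419.5 and 2598 with p50 targeted, 1936, 1884 and 1912 with p52 targeted and 1959.8, 1876 and 1971 in the RelB-labelled libraries, with 2963, 2976 and 3039 and 3088, 3209 and 3398 in the cRel-labelled and RelA libraries. Here the p52 and RelB-labelled libraries overlapped. Its cRel-labelled libraries lay below the controls and passed only without control 1 (-0.22, adjusted p = 0.0426 by limma). RFC2 (ENSG00000049541) read 3131, 3110.2 and 3585 in the controls and 2846, 2785 and 2839.5 in the cRel-labelled libraries, where it passed at -0.21 (SE 0.06, adjusted p = 0.037 by limma). Without control 3 that difference was -0.14 (adjusted p = 0.239 by limma), and the call was also lost without any 1 of the cRel-labelled libraries. Its other libraries read 2771, 2536 and 2553 with p50 targeted, 2277, 2349.8 and 2467 with p52 targeted, 3100.2, 3078 and 2947 with RelA targeted and 2159.5, 2126 and 2122 in the RelB-labelled group, the last wholly below the p52 group.

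RFC1 (ENSG00000035928), the large subunit, moved least of the loader. It read 3224, 3244 and 3027 in the controls, 2821, 2661 and 2934 with p50 targeted, 2706, 2634 and 2468 with p52 targeted and 2838, 2767 and 2864 in the RelB-labelled libraries. The cRel-labelled libraries read 3292, 3246 and 3471, all above the controls but not past the test (0.08, adjusted p = 0.47 by limma), and the RelA knockout 3167, 3146 and 3338. The RelB-labelled libraries lay above the p52 libraries, and the RelB-labelled fall of 0.16 was no longer called after quantile normalization (-0.05, adjusted p = 0.462 by limma) or without control 2 (-0.15, adjusted p = 0.0516).

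The subunits of RPA, which coats single-stranded DNA at the fork, differed little from the control. Their median log2 fold changes were -0.14, -0.32 and -0.25 in the p50, p52 and RelB-labelled groups, with 2, 2 and 3 of 3 called. RPA1 (ENSG00000132383) read 6139, 6329 and 6579.6 in the controls, 5640.5, 5662 and 5956 with p50 targeted, 4949.7, 4933 and 5084 with p52 targeted and 5685, 5509 and 5575 in the RelB-labelled libraries, with 6281, 6128 and 6331 and 6328, 6269 and 6566 in the cRel-labelled and RelA libraries. The p52 knockout was lowest and did not overlap any other group. Its RelB-labelled fall of 0.18 was not called after quantile normalization (-0.03, adjusted p = 0.581 by limma), and its p50 fall was not called by edgeR (-0.12, adjusted p = 0.0548) nor without the 3 libraries that stood apart (adjusted p = 0.0712 by limma), nor without control 2 or 3 or p50 library 1 or 2 (adjusted p = 0.0598 to 0.106 by limma).

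RPA2 (ENSG00000117748) read 2427, 2406 and 2503 in the controls, 2086, 2034 and 2081 with p50 targeted, 1943, 1870.2 and 2084 with p52 targeted and 2124, 2000.2 and 2064 in the RelB-labelled libraries. The last 3 groups overlapped one another and lay below the controls, and the cRel-labelled (2409, 2374 and 2291) and RelA (2295, 2463 and 2319) libraries overlapped the controls. RPA3 was called only in the RelB-labelled libraries, at -0.34, and not there without control 3 or without RelB-labelled library 2 (adjusted p = 0.0662 and 0.0795 by limma).

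All 5 genes of deoxynucleotide supply fell in the p50, p52 and RelB-labelled groups, with medians of -0.30, -0.51 and -0.79. RRM2 (ENSG00000171848), the S-phase subunit of ribonucleotide reductase, had the largest fall of any member in the p50 knockout. It read 8211, 8833 and 9027 in the controls, 5521, 4791 and 4958 with p50 targeted, 4626, 4429 and 4442 with p52 targeted and 3670.2, 3361 and 3646 in the RelB-labelled libraries, which are 4 separate groups. The falls were 1.71-fold, 1.93-fold and 2.44-fold (p50: adjusted p = 4.2e-09 by limma). The RelA libraries (8766, 8839.5 and 8979) overlapped the controls and the cRel-labelled libraries (8083, 7895 and 8012) lay below them without passing.

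RRM1 (ENSG00000167325), the large subunit, fell less than RRM2. It read 6355, 6601 and 6388 in the controls, 5358, 5234 and 5115 with p50 targeted, 4219, 4159.9 and 4364 with p52 targeted and 3844, 3604 and 3767 in the RelB-labelled libraries, again with no overlap, and 6469, 6351 and 6181 and 6415, 6636 and 6541 in the cRel-labelled and RelA libraries. Thymidine kinase, TK1, was 2.17-fold lower in the RelB-labelled libraries and 1.31-fold lower in the p52 knockout. It was also the member nearest to a call in the RelA knockout, at -0.24 (95% interval -0.40 to -0.08, adjusted p = 0.076 by limma), and passed there without control 2 (-0.30, adjusted p = 0.0315) or without RelA library 2 (-0.30, adjusted p = 0.0376). Thymidylate synthase, TYMS, fell about as far in the p50 as in the p52 knockout, at -0.38 and -0.37.

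Among genes that rebuild chromatin and copy DNA methylation, 3 of 4 fell in the p50 knockout and all 4 in the p52 and RelB-labelled groups. CHAF1A (ENSG00000167670), the large subunit of the CAF-1 histone chaperone, read 3213, 3435 and 3473 in the controls, 2874, 2702 and 2555 with p50 targeted, 2139.5, 2041 and 1984 with p52 targeted and 1616, 1629 and 1422 in the RelB-labelled libraries. Groups were separate in that order, and the cRel-labelled (3296, 3182 and 3161) and RelA (3357, 3658 and 3074) libraries overlapped the controls. DNMT1 (ENSG00000130816), the maintenance methyltransferase, read 10797, 11703 and 10568 in the controls, 8978, 8378 and 7481 in the p52 knockout and 7657, 7629 and 7234 in the RelB-labelled libraries, the last 2 overlapping. Its p50 libraries, at 10526, 9198 and 9537, lay below the controls at the edge of the threshold (-0.18, adjusted p = 0.05 by limma, not called), and DESeq2 called it (adjusted p = 0.0462). The cRel-labelled and RelA libraries read 12287, 11254 and 11659 and 12260, 12279 and 11330.

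The 4 genes of fork protection and checkpoint signalling fell in the p50, p52 and RelB-labelled groups, with medians of -0.33, -0.60 and -0.87. CLSPN (ENSG00000092853), the claspin that links a stalled fork to the kinase CHK1, read 2308, 2275 and 2510.3 in the controls, 1578, 1421 and 1478 with p50 targeted, 1291, 1150.1 and 1232 with p52 targeted and 916, 890.2 and 902 in the RelB-labelled libraries. These groups were separate, with falls of 1.58-fold, 1.93-fold and 2.62-fold, and the cRel-labelled (2400.3, 2290.2 and 2169) and RelA (2273, 2422 and 2232) libraries overlapped the controls. TIPIN (ENSG00000075131), the partner of TIMELESS in fork protection, read 901, 855 and 1034 in the controls, 737, 740.5 and 678 with p50 targeted, 638, 561 and 673 with p52 targeted and 433, 414 and 393 in the RelB-labelled libraries, with 951, 890.3 and 843 and 887, 853 and 860.1 in the cRel-labelled and RelA libraries.

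TIMELESS itself did not follow TIPIN. It was 1.54-fold lower in the p52 knockout and 1.49-fold lower in the RelB-labelled libraries, where TIPIN was 2.24-fold lower. WDHD1 (ENSG00000198554), which ties the helicase to polymerase alpha, read 1621, 1767 and 1557 in the controls, 1426, 1386 and 1507 with p50 targeted, 1233, 1269 and 1241 with p52 targeted and 1252, 1212 and 1275 in the RelB-labelled libraries, with 1588, 1804 and 1760.3 and 1609, 1571 and 1764 in the cRel-labelled and RelA libraries. Its p52 and RelB-labelled values overlapped and its p50 fall of 0.19 was not called without control 2 (-0.14, adjusted p = 0.129 by limma), without p50 library 1 or 2 (0.0554 and 0.0948), after quantile normalization (0.0825) or in the fit of only the groups compared (0.0707).

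**Figure D4:**
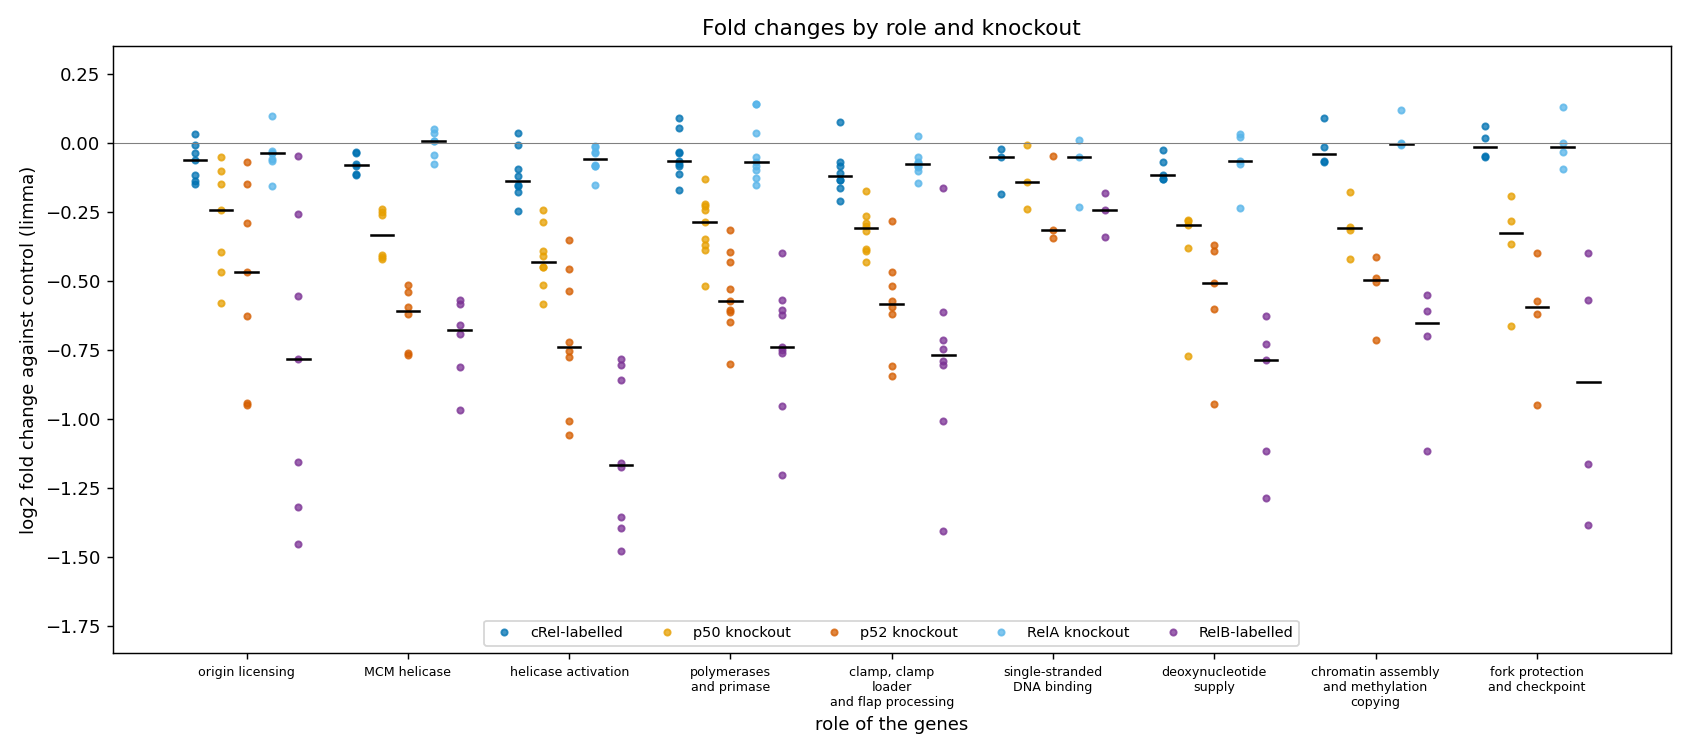
Log2 fold change of each member against the control, by role and group; each point is a gene and each bar the median of a role. Helicase activation reaches the lowest median, -1.17 in the RelB-labelled libraries, and single-stranded DNA binding the shallowest there, -0.25. The cRel-labelled and RelA points lie close to 0, with medians over the 54 members of -0.07 and -0.05. Over all genes tested the medians in these groups were -0.02 and -0.01.

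Whether the groups differ from one another was tested directly, without the control. A moderated F-test over the 5 knockouts called 53 of 54 members, where it called 78.8% of all genes tested; the exception was RPA3. The p50 knockout stood above the p52 knockout for 34 members (11.2% of all genes), led by ORC1 (difference 0.56, adjusted p = 1.4e-05 by limma), and below it for 0, with 42 above (17.8%) and 0 below at an unadjusted p under 0.05. That count was 22 in a fit of the groups compared alone and 22 without p50 library 1. TYMS, TK1 and GINS1 were among those that did not pass, with 95% intervals for the difference of -0.15 to 0.13, -0.05 to 0.27 and -0.07 to 0.20.

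Against the RelB-labelled libraries, 52 members were higher in the cRel-labelled group (33.4% of all genes), 52 in the RelA knockout (34.1%) and 50 in the p50 knockout (27.7%). The cRel-labelled libraries exceeded the p50 and p52 knockouts in 38 members (15.9%) and 50 members (23.4%). The RelA knockout exceeded them in 46 (20%) and 51 (26.5%). Between the cRel-labelled and RelA libraries 0 of 54 members differed by limma (11% of all genes did), and 3 were lower in the cRel-labelled group at an unadjusted p under 0.05 (10.3% of all genes). In that pair the largest difference was GINS3, at -0.17 (95% interval -0.32 to -0.02, adjusted p = 0.17 by limma), and for CDC6 the interval was -0.15 to 0.10. Many intervals in the comparisons of cRel-labelled and RelA libraries with the control were similarly narrow: for CDC6 -0.19 to 0.06 and -0.16 to 0.09, and for RRM2 -0.24 to 0.00 and -0.09 to 0.15. For the RelA knockout limma, edgeR and DESeq2 each called 0 members against the control, and 3 were lower at an unadjusted p under 0.05 (10.4% of all genes were). Of all 12381 genes these tools called 687, 671 and 795. In the cRel-labelled libraries edgeR and DESeq2 each called 2 members lower, as limma did, and 8 were lower at an unadjusted p under 0.05 (10.2% of all genes). Of all 12381 genes, edgeR called 205 lower there, DESeq2 325 and limma 238.

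The p52 and RelB-labelled libraries differed in more members of some roles than of others, and a difference between roles was not tested. Of the 54 members, 30 were higher in the p52 knockout (23.9% of all genes tested) and 1, RPA1, was higher in the RelB-labelled libraries (21.5%). All 8 helicase activation genes and all 5 deoxynucleotide genes were among the 30, with 5 of 7 licensing genes, 4 of 8 clamp and loader genes, 2 of 4 chromatin genes, 2 of 4 fork genes, 2 of 9 polymerase genes (PRIM1 and POLE2), 1 of 6 MCM genes (MCM7) and 1 of 3 RPA subunits (RPA3). TK1, chosen after its values were seen, differed most: 2148, 2035 and 2012 in the p52 knockout against 1252, 1266 and 1230.5 in the RelB-labelled libraries, with 2716, 2492 and 2937 in the controls. All 3 p52 libraries exceeded all 3 RelB-labelled ones, by 0.72 on the log2 scale (SE 0.08, adjusted p = 1e-07 by limma). GINS3, TIPIN and FEN1 followed, at 0.64, 0.59 and 0.56.

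MCM2, MCM3, MCM5 and MCM6 did not pass between these groups. Their differences (p52 minus RelB-labelled) were -0.02, 0.07, 0.05 and 0.04, with 95% intervals of -0.15 to 0.10, -0.05 to 0.19, -0.13 to 0.23 and -0.07 to 0.15. None of these intervals reaches the median difference of the helicase activation genes, 0.40. For RFC3, TIMELESS, WDHD1, PRIM2 and POLD2 the differences were also between -0.05 and 0.01. RPA1 was lower in the p52 knockout by 0.16 (95% interval -0.27 to -0.06, adjusted p = 0.011 by limma).

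**Figure D5:**
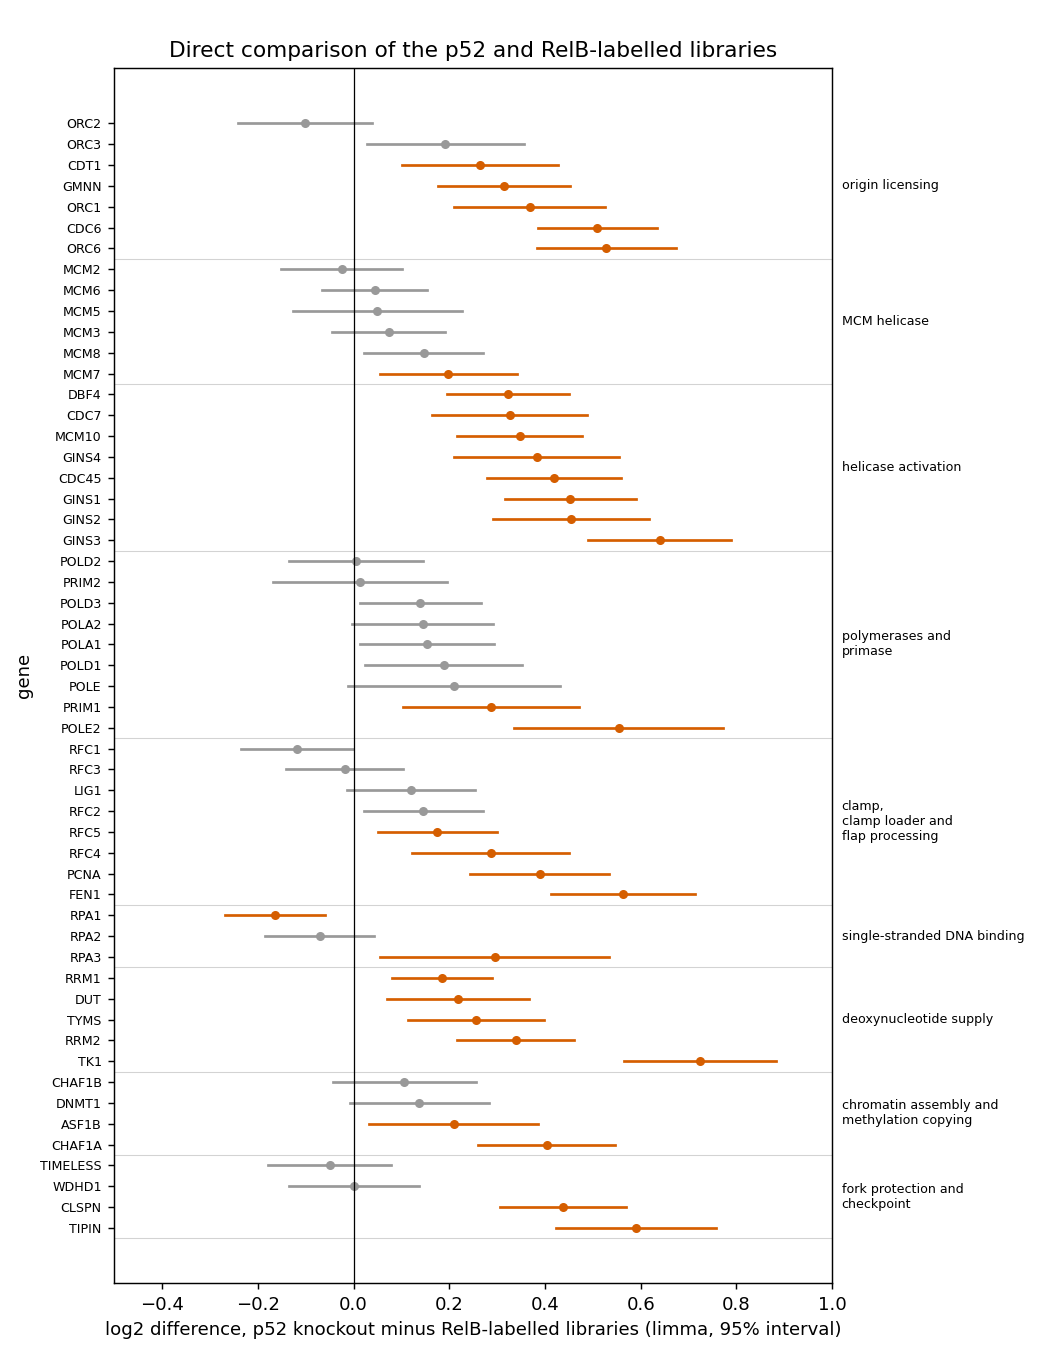
Each point is a member's log2 difference, p52 knockout minus RelB-labelled libraries, with its 95% interval from limma; coloured points have an adjusted p under 0.05. Helicase activation and deoxynucleotide genes lie to the right of 0, up to 0.72 for TK1. MCM2, MCM3, MCM5 and MCM6 lie close to 0, and RPA1 lies to the left at -0.16.

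The p52 and RelB-labelled groups were also set against a different knockout each, so that the comparisons share no library. Across the 54 members the difference p52 minus cRel-labelled and the difference RelB-labelled minus RelA had a Pearson r of 0.802 and a Spearman rho of 0.754, and the second difference was the lower one for 49 of 54 members and for 6311 of all 12381 genes tested. Over all those genes r and rho were 0.652 and 0.676. These are descriptions across genes of libraries normalised together, and genes are not independent replicates.

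Members were also split by the promoter letters shown above. Median log2 fold changes of members with and without an E2F spelling were -0.37 (n = 25) and -0.30 (n = 24) with p50 targeted, -0.60 and -0.56 with p52 targeted, and -0.78 and -0.76 in the RelB-labelled libraries. The ranges overlapped almost wholly: -1.45 to -0.26 with a spelling and -1.48 to -0.05 without one in the RelB-labelled libraries. With and without CCAAT the RelB-labelled medians were -0.80 (n = 30) and -0.73 (n = 19). The 9 members with a kappaB match had medians of -0.39, -0.62 and -0.97, and the 40 without one -0.30, -0.54 and -0.75. These medians carry no test.

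In the p50, p52 and RelB-labelled groups, most other replication genes outside the 56 fell with the members. This list and those of G1/S and mitosis genes below were also chosen with earlier results of these data known. Of 36 with a mean of at least 10, 22 were lower and 1 higher in the p50 knockout (19.6% and 17% of all genes tested). In the p52 knockout 27 were lower and 2 higher (26.4% and 24.5%), and in the RelB-labelled libraries 33 lower and 1 higher (34.7% and 33.1%). The RelA knockout had 0 lower and 2 higher (2.63% and 2.92%). In the cRel-labelled libraries 0 passed by limma (1.92% of all genes were lower and 4.17% higher). There 5 were lower at an unadjusted p under 0.05 (10.2% of all genes). Between the cRel-labelled and RelA libraries, unlike the members, 8 of the 36 differed by limma (11% of all genes did). In the cRel-labelled group 7 of them were lower and 1 higher, from -0.39 for DCK to 0.54 for POLD4. The histone chaperones NASP and ASF1A fell by 1.04 and 1.45 on the log2 scale in the RelB-labelled libraries. Exceptions that rose were POLD4, a small polymerase delta subunit (0.39 in the p52 knockout and 0.48 in the RelB-labelled libraries), and RRM2B, the p53-inducible reductase subunit (0.24 in the p50 and 0.37 in the p52 knockout). In the RelA knockout SAMHD1, which breaks down deoxynucleotides, rose by 0.34 and DCK, a salvage kinase, by 0.29. RRM2B and POLD4 were chosen after their values were seen.

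Genes that drive the G1/S step moved with the members. Of 17 activators, limma called 13 lower with p50 targeted (19.6% of all genes tested), 14 with p52 targeted (26.4%) and 13 in the RelB-labelled group (34.7%). It called 0 lower in both the cRel-labelled and RelA groups (1.92% and 2.63%). In these groups 3 and 0 were lower at an unadjusted p under 0.05 (10.2% and 10.4% of all genes). The 1 activator that was higher in the p50, p52, RelA and RelB-labelled groups was TFDP2, an E2F partner. CDC25A, the phosphatase that activates CDK2, had means of 2062 in the control, 1068 in the p52 knockout and 812 in the RelB-labelled libraries, and the cyclin CCNE2 went from 292 to 164 in the p50 knockout. MYBL2, a cell-cycle transcription factor, fell from 9130 to 3185 in the RelB-labelled libraries (log2 fold change -1.52). Of 14 genes listed as repressors and inhibitors, 7 were lower and 0 higher in the p50 knockout (19.6% and 17% of all genes). In the p52 knockout 7 were lower and 1 higher (26.4% and 24.5%). The cRel-labelled and RelA groups each had 0 lower and 1 higher (1.92% and 4.17%, 2.63% and 2.92%). RB1 had the highest fold change of the list in these last groups, 0.66 and 0.68, and the lowest in the p50 knockout, -0.56. In the RelB-labelled libraries 9 were lower and 4 higher, with a median of -0.49. Of all genes tested, 34.7% were lower and 33.1% higher there. The lowest was FBXO5, at -1.39, which restrains the anaphase-promoting complex rather than the G1/S step itself. Those that rose included CDKN1B and CDKN1A, which block cyclin-dependent kinases, by 0.82 and 0.59. CDKN2C, another such inhibitor in the list, went the other way. It lay below the control there and stood 0.98 higher in the p52 knockout than in the RelB-labelled libraries. All of these were chosen after their values were seen.

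Mitosis genes, which act after S phase, also fell. Of 27, 22 were lower in the p50 knockout (19.6% of all genes tested), 25 in the p52 knockout (26.4%) and 27 in the RelB-labelled libraries (34.7%). The medians were -0.40, -0.54 and -1.04. The RelB-labelled median lay further from 0 than that of the replication members, -0.76. CCNB1, the mitotic cyclin, had means of 4304 (control), 3004 (p50 knockout) and 1662 (RelB-labelled), and the kinase AURKA went from 2763 to 2036 and 1260. In the RelA knockout the 1 mitosis gene called was BUB1, a spindle checkpoint kinase, which rose from 3956 to 5153 (0.38). There 2.92% of all genes tested were higher. In the cRel-labelled libraries limma called 0, with 5 lower at an unadjusted p under 0.05 (10.2% of all genes).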

How the data were processed

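PolyA RNA from 18 GM12878 libraries (6 groups of 3) was sequenced from a directional kit. The submitters' processing notes name STAR 2.5.2b (an aligner), featureCounts 1.5.1 (a read counter), DESeq2 1.14.1 and the build GRCh37, without settings. The authors deposited a signal per gene and library, which the values show to be gene read counts divided by 1 factor per library. All 308790 values were whole multiples of what 1 read is worth in their library (within 0.0001 reads; 1 read is worth 0.646 to 1.46 units), so reads were recovered, 15.2 to 37.5 M per library.

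Groups follow the sample titles. The main test was limma 3.58.1 (R 4.3.3) applied to log2(value + 1) with the prior variance trended on mean level, in 1 fit of 18 libraries and 12381 genes with a mean of at least 10, two-sided, with Benjamini-Hochberg adjustment over all of these genes per comparison and a threshold of 0.05. Fold changes are on the log2(value + 1) scale. The 5 comparisons with the control, the 10 pairs of knockouts and a moderated F-test over the 5 knockouts were computed. The scripts were checked on simulated counts.

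Values in every library are given for the members with the smallest p in an F-test over all 6 groups (2 per role, 3 in roles of 7 or more), the 3 called members with the largest and the 3 with the smallest falls per comparison, and those with the highest and lowest level; other members are named by their fold change. From the other gene lists, the 3 called genes with the smallest p per list and comparison could be named. Genes given in more detail outside these rules are marked. The members, roles and other gene lists were chosen with earlier results of these data known. Replicate numbers were not used as a block, because in 0 of 5 knockouts were all 3 correlations of same-numbered deviations above 0.1; with a mean of at least 100 this held for 1, the p52 knockout (0.183, 0.401 and 0.612). The alternatives were a pseudocount of 8, no filter, a mean of at least 100, edgeR 4.0.16 (TMM) and DESeq2 1.42.0 on recovered reads, quantile normalization, the replicate block, a fit of only the groups compared, and each library left out. Leaving out the 3 libraries that stood apart together was chosen after seeing the data. Promoter windows come from RefSeq (GRCh38.p14) and gene lengths and overlaps from GENCODE release 29; no coordinate was converted between builds.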

Additional observations from a re-analysis of the deposited data

How the results depend on the processing

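Of 4050 values of single members under the alternatives, 3977 kept their side of the threshold, 56 lost the call and 17 gained it. Direction was compared only where the main fit or the alternative called the member, and 0 of those changed direction. Leaving out each library in turn gave 41 to 48 lower members in the p50 knockout, 51 to 52 in the p52 knockout and 51 to 53 in the RelB-labelled libraries. Quantile normalization gave 38, 51 and 51 in these groups (medians -0.23, -0.45 and -0.63), and the fit of only the groups compared 44, 51 and 53. The 2 lower members in the cRel-labelled libraries were 1 with no filter on low values, 1 in the fit of only the groups compared, 0 after quantile normalization, 0 without the 3 libraries that stood apart, and 0 to 2 with a library left out (0 without control 3 or any 1 cRel-labelled library). The count in the RelA knockout ranged from 0 to 1, and that between the cRel-labelled and RelA libraries was 1 in the fit of only the groups compared. Members differing between the p50 and p52 knockouts numbered 22 in that fit and 22 to 33 with a library left out, against 34. The cause of these changes was not tested. With the replicate block, the lower members numbered 2, 49, 52, 0 and 53 in the cRel-labelled, p50, p52, RelA and RelB-labelled groups. The pairing that the block assumes is not given in the labels; 16 of 18 libraries correlated best with their own number, a hint from the data. Every member had a mean of at least 310.8 normalised counts; what limits precision was not tested.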
